A study of Mus musculus with 6 samples.

Results

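Genes of cholesterol synthesis, sterol uptake and their control by SREBP2 were followed in Min6, an insulin-secreting tumour line from mouse that serves as a stand-in for beta cells. The 28 genes were taken by name from the 53379 gene identifiers of the count tables. They hold 18 enzymes of the synthesis pathway and 10 genes of lipoprotein uptake, SREBP2 control, sterol transfer, efflux and esterification. All 28 passed the filter on low counts with all 6 libraries and with 5. The study placed 3 libraries of cells carrying a gRNA against JunD, a transcription factor of the AP-1 family, beside 3 libraries of cells given a control gRNA directed at Rosa26. Both kinds of gRNA were delivered with lentiCRISPR v2, which also carries Cas9. All cells were at passage 28, were collected on day 8 after transduction, and had been kept for 30 hours under glucolipotoxic conditions, a stress of high glucose and fatty acid, so every group carries that stress and no library without it was analysed here. Min6 is a tumour line, the labels do not say whether a library came from a separate transduction, and the p-values below therefore measure the spread between these libraries, which may be technical.

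Cells make cholesterol from acetyl-CoA through mevalonate, farnesyl diphosphate, squalene and lanosterol. The transcription factor SREBP2 (Srebf2) is held in the endoplasmic reticulum with its escort SCAP; when sterols are plentiful the INSIG proteins retain the pair, and when sterols fall it moves to the Golgi, is cut free and switches on most genes of the pathway together with Insig1 itself. Sterol excess is met by efflux through Abca1 and Abcg1 and by esterification through Soat1, and in beta cells membrane cholesterol is known to bear on insulin granule release.

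Library totals ran from 41071566 to 50024931 counts. Jund was at 39.3, 34.5 and 30.4 CPM (a library's counts scaled to its own total) with the Rosa26 gRNA and at 22.6, 25.1 and 26.9 CPM with the JunD gRNA, lower in each JunD gRNA library, with a log2 fold change of -0.47 ± 0.11 (SE) on 6 libraries (edgeR quasi-likelihood, adjusted p = 0.417) and -0.38 ± 0.08 on 5 (adjusted p = 0.00773). Cas9 edits DNA, so this mRNA level is an indirect check of the labels. Beta-cell markers were high in every library, at a summed 37060 to 72440 CPM over 7 genes with the Rosa26 gRNA and 73610 to 79180 CPM with the JunD gRNA. Of the 7, 5 rose on 5 libraries, and the lowest sum was that of Rosa26 gRNA replicate 1. Among markers of other cells, the 5 acinar genes summed to at most 0.302 CPM in any library. The macrophage genes summed to 3.20 to 4.12 CPM against 2.29 to 3.26 CPM with the JunD gRNA, and Adgre1 had 0 counts in all 6 libraries. The duct genes summed to 57.3 to 67.6 CPM against 70.5 to 72.3 CPM (Cftr and Sox9 under 1 CPM), other islet endocrine genes to 535 to 721 CPM against 672 to 701 CPM, and endothelial and fibroblast genes to at most 2.02 and 3.74 CPM. Among the islet endocrine genes Ppy fell on 5 libraries (log2 fold change -0.70, edgeR adjusted p = 1.45e-05), although its groups overlapped over all 6. Their part in the results below was not tested. Rosa26 gRNA replicate 1 stood apart over the transcriptome: the median absolute log2 deviation of its genes was 0.305, where the other libraries had 0.088 to 0.16. Fold changes are therefore given on all 6 libraries and on the 5 that remain without it, and "rose" and "fell" refer to calls in edgeR (Benjamini-Hochberg adjusted p under 0.05) on the 5 libraries.

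On those 5 libraries, 2 of the 28 genes fell and 0 rose. They were Msmo1, the methylsterol monooxygenase that acts on the methyl groups of the sterol ring in a later step, and Cyp51, the demethylase that acts on lanosterol itself. The share of 7.14% stands beside 2.86% of the 18296 genes tested that were called in either direction, 1.4% lower and 1.45% higher. Both changes were small: over all 6 libraries the mean differed by -16.7% for Msmo1 and by -12.8% for Cyp51. With all 6 libraries 0 of the 28 passed in edgeR, as did 0% of all 17767 genes tested (DESeq2 called 67 genes and limma-voom 0, none of them among the 28). At an unadjusted p under 0.05 there were 5 of the 28 on 6 libraries, namely Hmgcs1, Cyp51, Msmo1, Vldlr and Insig2, all lower, against 11.9% of all genes in either direction and 6.51% lower. On 5 libraries Sc5d and Insig1 joined them, 7 of the 28 or 25%, again all lower, against 15.9% of all genes and 7.59% lower. The median log2 fold change over the 28 was 0.01 on 6 libraries and -0.03 on 5, beside -0.01 and 0.00 over all genes tested. RNA was taken from whole cultures, so fewer cells of a kind and less RNA per cell cannot be told apart.

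Per kilobase of annotated exon, the most abundant of the 28 in the control libraries was Insig1, the SREBP2-induced retention protein, at 113 ± 1.70 CPM per kb (SD, n = 3). Cyp51 followed at 64.2 ± 3.63 CPM per kb, then squalene epoxidase Sqle at 51.5 ± 1.81 CPM per kb. Srebf2 at 48.0 ± 3.34 CPM per kb and phosphomevalonate kinase Pmvk at 45.4 ± 4.28 CPM per kb did not differ beyond their spread. Hmgcs1, which makes HMG-CoA, stood at 37.6 ± 4.90 CPM per kb and Msmo1 at 32.2 ± 0.863 CPM per kb. Enzymes of the early pathway differed widely: mevalonate kinase Mvk was at 11.4 ± 2.41 CPM per kb, below both Hmgcs1 and Pmvk. The isomerase Idi1 had 3.89 ± 0.453 CPM per kb. At the bottom was Fdps, farnesyl diphosphate synthase, with 0.211 ± 0.122 CPM per kb. The exon length used is the union of all annotated exons, which lowers the value of genes with long minor transcripts such as Lss (10787 bases). For Msmo1 this union is 6144 bases against 2044 for its longest coding transcript, and for Hmgcs1 4594 against 3464. The order of genes, Msmo1 and Hmgcs1 among them, therefore depends on the length used, which the SDs do not cover.

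**Figure D1:**
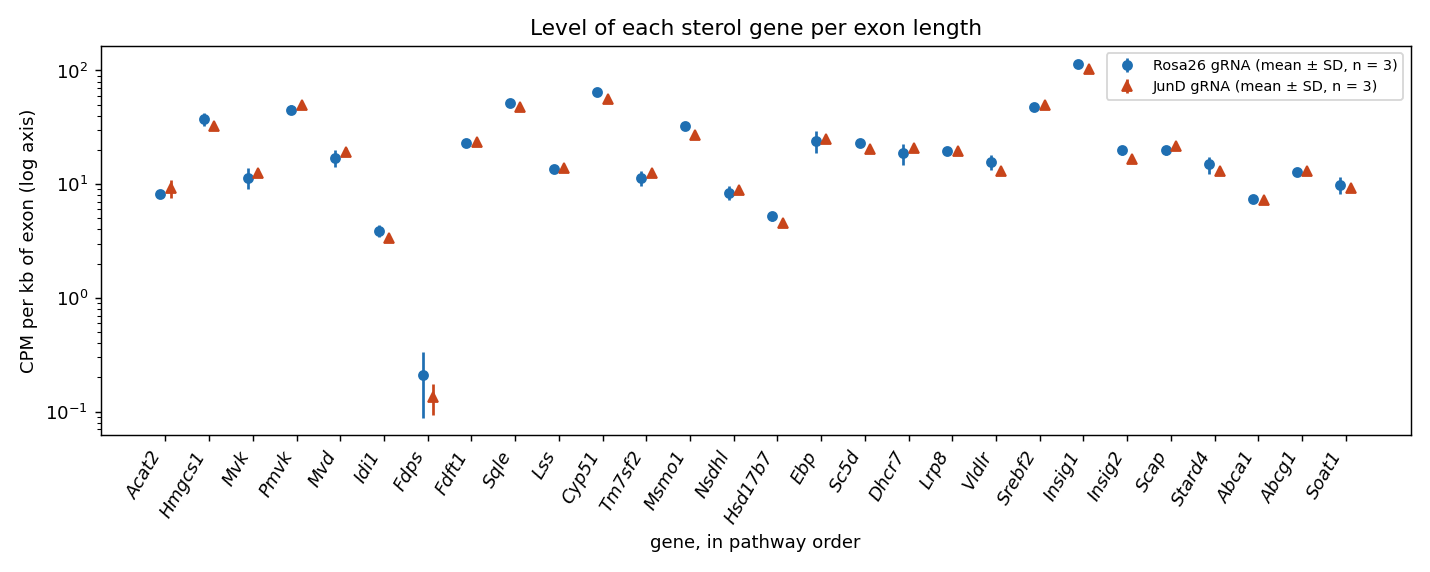
Level of the 28 genes in pathway order, as CPM per kb of exon on a log axis, mean ± SD over 3 libraries per group (circles Rosa26 gRNA, triangles JunD gRNA). Insig1 is highest at 113 CPM per kb and Fdps lowest at 0.211 CPM per kb in the control libraries, and the 2 groups lie close together at every gene.

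The Fdps value cannot be read as the enzyme's level. Its counts were 63, 22 and 37 with the Rosa26 gRNA and 32, 20 and 22 with the JunD gRNA. Of the 50-base windows of its longest coding transcript, 86.4% occur in transcripts of other annotated genes, most of them unnamed gene models. The treatment of reads that match several places is unstated, and its part in the low value was not tested. Acat2 shared 45.9% of its windows with other genes (Acat3 and Tcp1), Fdft1 30.7%, Idi1 30.5%, Hmgcs1 13.6% and Scap 13.1%, so their counts are uncertain too. Msmo1, Sqle, Srebf2 and Insig2 are among 16 of the 28 with no shared window. Exons of 8 of the 28 are overlapped by another annotated gene. On the same strand this is Vps51 for Tm7sf2 and, over 1124 exonic bases, the gene model Gm43738 for Fdps.

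The libraries gave the following picture along the pathway. In Rosa26 gRNA replicate 1, 14 of the 28 genes had their highest level of all 6 libraries and 12 their lowest. Without a test, the groups can be read by overlap. All 3 JunD gRNA libraries lay below all 3 control libraries for 9 of the 28 genes: Hmgcs1, Sqle, Cyp51, Msmo1, Hsd17b7, Sc5d, Vldlr, Insig1 and Insig2. That is 32.1% of the 28, and the same held for 12.8% of all 17767 genes tested. They lay above all control libraries for Pmvk and Lss, 7.14% of the 28 against 11.6% of all genes (24.4% of all genes lay apart in either direction). On the scale of TMM effective library sizes the counts were 9 and 3, with Stard4 in place of Sqle among the lower genes and Scap added to the higher ones, beside 11.9% and 12.9% of all genes.

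**Figure D2:**
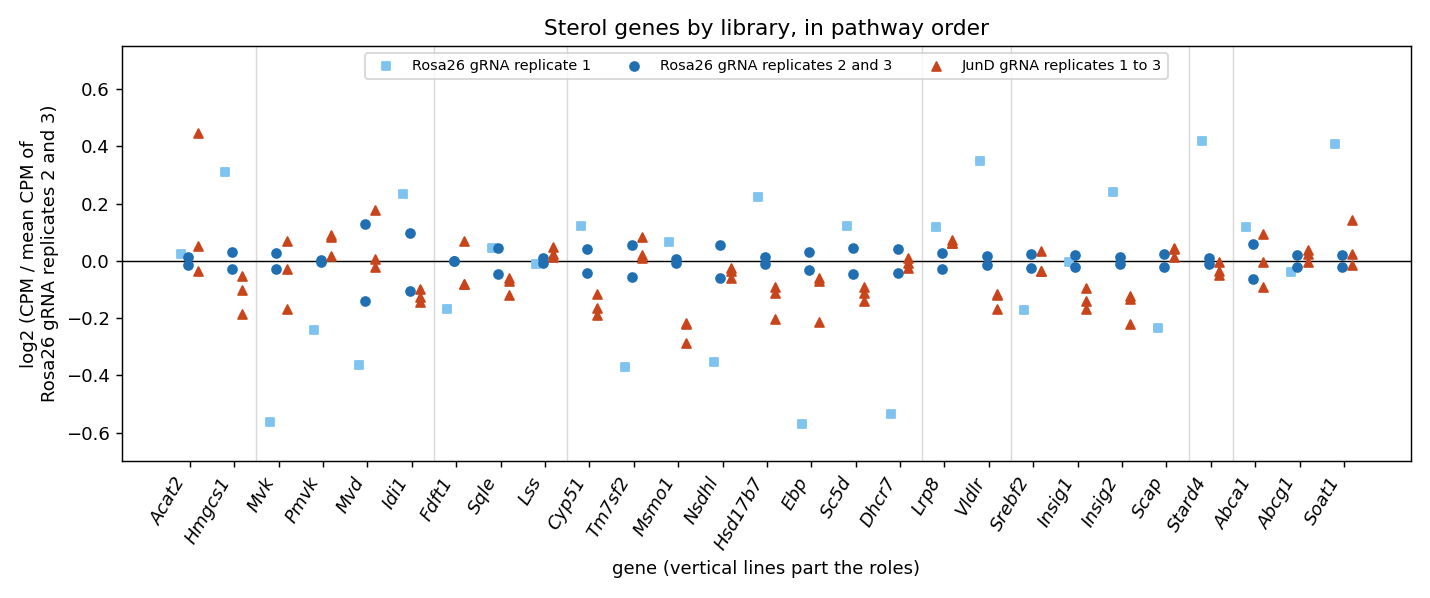
Each library's level of 27 of the genes, as log2 of its CPM over the mean CPM of Rosa26 gRNA replicates 2 and 3, in pathway order (squares Rosa26 gRNA replicate 1, circles replicates 2 and 3, triangles JunD gRNA); Fdps, with at most 63 counts, is not drawn. Rosa26 gRNA replicate 1 is the highest or lowest of the 6 libraries for most genes, and the 3 JunD gRNA libraries sit together below the control for Msmo1, Cyp51, Insig1 and Insig2.

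Msmo1 was at 204, 194 and 196 CPM with the Rosa26 gRNA and at 168, 160 and 167 CPM with the JunD gRNA. The groups did not overlap, and Rosa26 gRNA replicate 1 lay close to the other control libraries. The control mean was 198 ± 5.30 CPM and the other mean 165 ± 4.59 CPM (SD over 3 libraries). Its log2 fold change was -0.24 ± 0.04 (SE) on 5 libraries (edgeR quasi-likelihood, adjusted p = 0.00268) and -0.25 ± 0.06 on 6 (adjusted p = 0.417). With offsets for GC content and transcript length it was -0.18 on 5 libraries and still passed (edgeR, adjusted p = 0.00635), as did 1.13% of all genes in that direction; these offsets are curves per library over both properties. The call was lost when the 5 libraries were further reduced by Rosa26 gRNA replicate 2 (-0.24, adjusted p = 0.0862) or replicate 3 (-0.22, adjusted p = 0.219), each of which leaves a single control library that is assumed to vary like the others. The gene (ENSMUSG00000031604.10) lies on chromosome 8 from 64718139 to 64733792 on the minus strand of GRCm38 (mm10), and no other annotated gene overlaps its exons.

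Cyp51 was at 299.5, 267 and 283 CPM with the Rosa26 gRNA and at 254, 246 and 241 CPM with the JunD gRNA. The lowest control library stood above the highest JunD gRNA library. The log2 fold change was -0.15 ± 0.04 (SE) on 5 libraries (edgeR, adjusted p = 0.0444) and -0.18 ± 0.07 on 6 (adjusted p = 0.417). This call was close to the threshold. It was lost with the GC and length offsets (-0.11, adjusted p = 0.0872) and without Rosa26 gRNA replicate 2 (-0.19, adjusted p = 0.162), Rosa26 gRNA replicate 3 (-0.10, 0.672) or JunD gRNA replicate 2 (-0.14, 0.127). Cyp51 (ENSMUSG00000001467.5) lies on chromosome 5 from 4081145 to 4104746, minus strand, and 166 bases of its exons overlap the antisense gene Akap9.

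**Figure D3:**
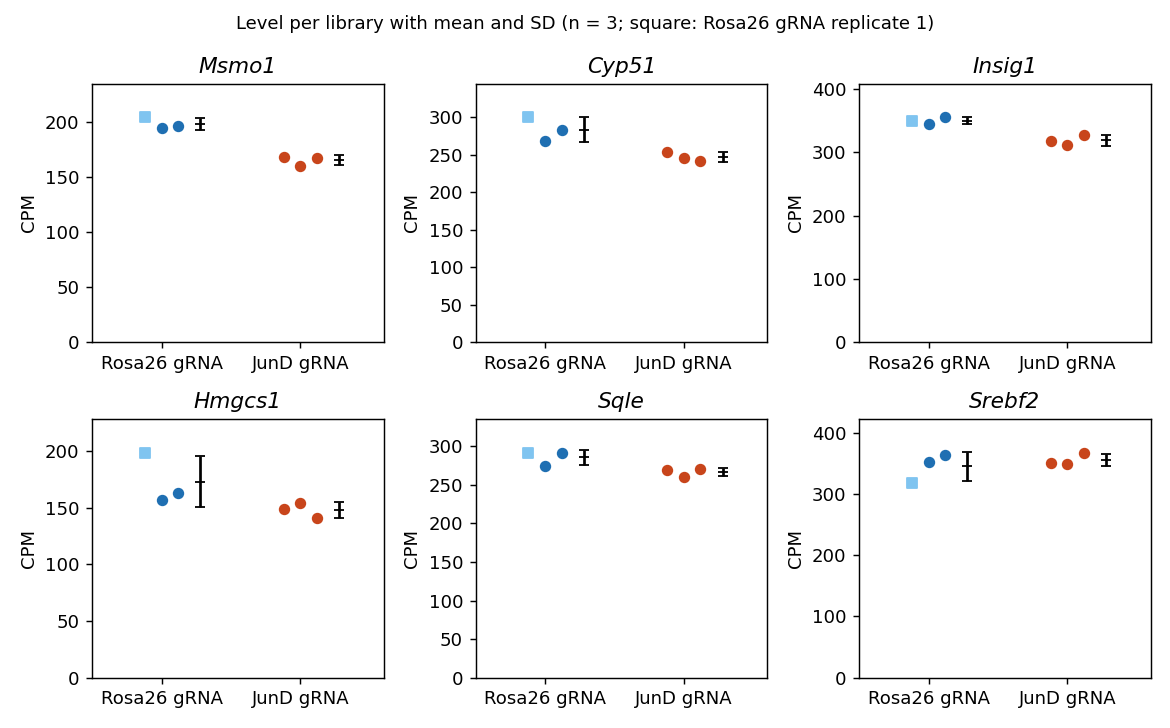
CPM of 6 genes in every library, with the mean and SD of each group beside the points (n = 3; y axes start at 0; the square is Rosa26 gRNA replicate 1). Msmo1, Cyp51, Insig1, Hmgcs1 and Sqle show no overlap between the groups, and Srebf2 overlaps.

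The other 6 enzymes between lanosterol and cholesterol did not pass. The dehydrogenase Hsd17b7 had 29.7, 25.2 and 25.6 CPM with the Rosa26 gRNA and 22.1, 23.8 and 23.5 CPM with the JunD gRNA, groups that did not overlap (log2 fold change -0.13 ± 0.07 on 5 libraries, edgeR adjusted p = 0.399, and -0.20 ± 0.09 on 6). Sc5d, the sterol desaturase, had 117, 105 and 111 CPM against 101, 100 and 98.0 CPM, also without overlap (-0.11 ± 0.05 on 5, adjusted p = 0.24, and -0.14 ± 0.07 on 6). For Sc5d the sign turned with GC and length offsets on 6 libraries (0.03) and kept on 5 (-0.02). The 4 remaining enzymes overlapped between the groups: the reductases Tm7sf2 (log2 fold change 0.04 ± 0.06) and Dhcr7 (0.00 ± 0.05), the dehydrogenase Nsdhl (-0.04 ± 0.07) and the isomerase Ebp (-0.11 ± 0.06), all on 5 libraries with adjusted p of 0.384 or more (edgeR). On 6 libraries the values of these 4 were 0.16, 0.16, 0.08 and 0.07, and Rosa26 gRNA replicate 1 was lowest for each. Dhcr7, which makes the last double-bond reduction, shows this: it had 83.6 CPM there and 118 to 125 CPM in the other 5.

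Neither of the first 2 enzymes passed. Hmgcs1 was at 199, 157 and 163 CPM with the Rosa26 gRNA and at 149, 154 and 141 CPM with the JunD gRNA. All JunD gRNA libraries lay below the control ones, but replicate 2 of the control was within 3 CPM of the nearest. The log2 fold change was -0.11 ± 0.05 on 5 libraries (edgeR, adjusted p = 0.221), -0.21 ± 0.09 on 6 (adjusted p = 0.417) and -0.04 with the offsets on 5. Acat2, the cytosolic thiolase that joins acetyl-CoA units, had 21.3, 21.1 and 20.7 CPM with the Rosa26 gRNA and 21.7, 20.4 and 28.5 CPM with the JunD gRNA. JunD gRNA replicate 3 alone stood high (0.18 ± 0.10 on 5 libraries, edgeR adjusted p = 0.409, and 0.18 ± 0.13 on 6).

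Of the 5 enzymes from mevalonate to farnesyl diphosphate, 0 passed. Pmvk was at 69.3, 81.7 and 82.2 CPM with the Rosa26 gRNA and at 82.8, 86.8 and 87.2 CPM with the JunD gRNA, apart by less than 1 CPM at the nearest libraries. Mvk (-0.03 ± 0.07), the decarboxylase Mvd (0.06 ± 0.08), Pmvk (0.07 ± 0.05), Idi1 (-0.12 ± 0.10) and Fdps (-0.10 ± 0.46) had adjusted p of 0.551 or more on 5 libraries in edgeR. On 6 libraries the same genes had 0.14 ± 0.15, 0.18 ± 0.13, 0.15 ± 0.09, -0.19 ± 0.11 and -0.63 ± 0.47, so that Mvk changed sign. Fdps, with 20 to 63 counts a library, had the largest error of the 28.

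Sqle, the epoxidase that turns squalene toward lanosterol and a known control point, was at 292, 274 and 291 CPM with the Rosa26 gRNA and at 269, 260 and 271 CPM with the JunD gRNA. The difference was -0.08 ± 0.04 on 5 libraries (edgeR, adjusted p = 0.365) and -0.08 ± 0.06 on 6. Squalene synthase Fdft1 (-0.03 ± 0.05) and lanosterol synthase Lss (0.03 ± 0.04) differed by less than their standard errors on 5 libraries, and on 6 they had 0.04 ± 0.08 and 0.05 ± 0.06. Fdft1 overlaps the abundant antisense gene Ctsb over 774 exonic bases, so its counts could hold reads of both.

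The 18 enzymes summed to 1723, 1720 and 1768 CPM with the Rosa26 gRNA and to 1652, 1643 and 1652 CPM with the JunD gRNA. The sums did not overlap, and the mean of the JunD gRNA libraries differed by -5.04% (1649 ± 5.08 against 1737 ± 27.3 CPM, SD, n = 3 each) or by -4.00% on the scale of TMM effective library sizes. Few genes carry that sum: Sqle, Cyp51, Msmo1 and Sc5d, the 4 enzymes among the 18 that use molecular oxygen, made up 912, 840 and 881 CPM against 792, 765 and 778 CPM. This grouping was chosen after the values were seen. All 4 had a negative log2 fold change on 6 and on 5 libraries, with a median of -0.13 on 5 libraries, where the other 14 enzymes had a median of -0.03 and 9 of 14 negative values. With the offsets on 5 libraries the medians were -0.08 and -0.01, and on 6 libraries 3 of the 4 stayed negative, Sc5d not.

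No difference was detected in the mRNA of SREBP2 itself. Srebf2 was at 318, 352 and 364 CPM with the Rosa26 gRNA and at 350, 350 and 367 CPM with the JunD gRNA, ranges that overlap. Its log2 fold change was -0.01 ± 0.04 on 5 libraries (edgeR, adjusted p = 0.968) and 0.06 ± 0.08 on 6 (0.72). Cleavage of the protein, which sets its activity, was not measured. For Scap, the escort, replicate 1 of the control lay at a log2 ratio of -0.23 to replicates 2 and 3, and the log2 fold change was 0.04 ± 0.04 on 5 libraries and 0.12 ± 0.08 on 6.

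Insig1 was at 350, 345 and 355 CPM with the Rosa26 gRNA and at 318, 311 and 328 CPM with the JunD gRNA. The groups did not overlap, and replicate 1 of the control lay between the other two. The log2 fold change of -0.13 ± 0.04 on 5 libraries missed the threshold (edgeR, adjusted p = 0.0755), passed in DESeq2 on the same libraries (adjusted p = 0.0415), and was -0.12 ± 0.06 on 6 (edgeR, adjusted p = 0.434). Insig2, the other retention protein, which is not under the same SREBP control, was at 77.1, 64.7 and 65.8 CPM against 56.0, 59.9 and 59.5 CPM. It too lay apart, with -0.15 ± 0.05 on 5 libraries (edgeR, adjusted p = 0.128) and -0.23 ± 0.08 on 6.

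**Figure D4:**
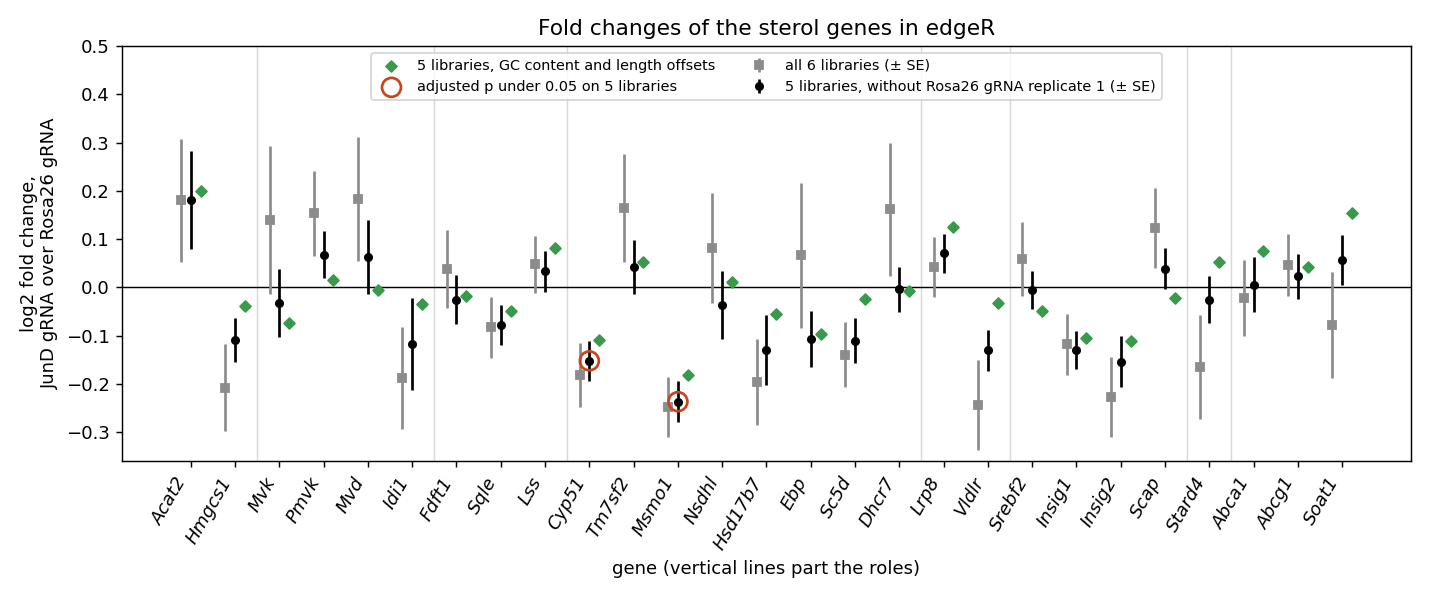
Log2 fold change of 27 of the genes (Fdps is not drawn), JunD gRNA over Rosa26 gRNA, in edgeR with all 6 libraries (grey squares ± SE), with 5 (black circles ± SE) and with 5 and GC content and length offsets (green diamonds). Rings mark Msmo1 at -0.24 and Cyp51 at -0.15, the genes called on 5 libraries; the other circles lie between -0.15 and 0.18.

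SREBP2 and AP-1 factors, JunD among them, act through known promoter motifs, so upstream stretches are shown for Msmo1 and Cyp51, the genes called, and for Hmgcs1 and Insig1, textbook targets of SREBP2. They were chosen with values and matches known. RefSeq's table (GRCm38.p6) held a start site for 23 of the 28. The windows searched were the 250 bases before each start, on both strands, for TCACNCCA, a core of the sterol regulatory element (SRE), and TGANTCA, the AP-1 motif; the SRE core was shortened from TCACNCCAC, which matched Hmgcs1 alone (against 1.22% of 27025 genes) and contains the shorter form. The SRE core was in a window of 3 of the 23 genes (Hmgcs1, Msmo1 and Srebf2, 13%), against 4.2% of all genes. Cyp51, Insig1, Insig2, Vldlr, Hsd17b7, Idi1 and Sc5d, whose log2 fold changes on 5 libraries were below that of Hmgcs1, held none. The AP-1 motif was in 2 (Msmo1 and Dhcr7; 8.7%), against 7.82%. The CCAAT box was in 19 of the 23 (82.6%, against 37.5% of all genes) and the GC box, GGGCGG, in 20 (87%, against 35.4%). The E-box CACGTG was in 6 (26.1%, against 6.86%) and the CRE motif TGACGTCA in 0 (against 1.77%). The shares of all genes are over every gene with a window, whether or not it passed the filter on low counts. All of the 28 passed that filter, and shares over expressed genes alone were not computed. Capitals mark a match to the SRE core or the AP-1 motif. For Hmgcs1 the whole window is printed (chr13:119690101-119690350, plus strand), for Cyp51 (chr5:4104747-4104947, minus strand) and Insig1 (chr5:28071162-28071362, plus strand) the 201 bases that lie before the first annotated exon, neither of which holds a match, and for Msmo1 30 bases around each of its matches (chr8:64733737-64733766 and chr8:64733687-64733716, minus strand), which lie before the RefSeq start but within the first exon of a longer GENCODE transcript. All run 5′ to 3′.
Hmgcs1: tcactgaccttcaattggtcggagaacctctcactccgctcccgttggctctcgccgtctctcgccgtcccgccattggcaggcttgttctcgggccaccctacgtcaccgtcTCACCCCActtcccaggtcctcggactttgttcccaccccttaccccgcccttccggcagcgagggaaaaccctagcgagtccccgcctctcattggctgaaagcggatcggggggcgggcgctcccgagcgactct
Cyp51: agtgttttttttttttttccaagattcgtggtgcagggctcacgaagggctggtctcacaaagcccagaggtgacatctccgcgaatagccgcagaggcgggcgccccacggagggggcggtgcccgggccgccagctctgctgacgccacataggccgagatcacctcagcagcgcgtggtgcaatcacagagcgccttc
Insig1: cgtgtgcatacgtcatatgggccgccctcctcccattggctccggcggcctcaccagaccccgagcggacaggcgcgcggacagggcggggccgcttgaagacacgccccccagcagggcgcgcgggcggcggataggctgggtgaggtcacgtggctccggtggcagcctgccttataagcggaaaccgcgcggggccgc
Msmo1, SRE core: tctcactattcTCACTCCAtccgcgcagcc
Msmo1, AP-1 motif: cttcgttgactTGAGTCAcacgctgccggg
A match in these windows is a match of letters, and binding was not measured in this study. Variants of these motifs were not searched for, so a stretch without a match may still hold such an element. Msmo1 is the only gene of the 23 with both the SRE core and the AP-1 motif in the window, and its matches do not overlap.

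Neither of the 2 lipoprotein receptors among the 28 genes passed the test. Vldlr, the very low density lipoprotein receptor, was at 185, 144 and 147 CPM with the Rosa26 gRNA and at 134, 134 and 129 CPM with the JunD gRNA, without overlap. Its log2 fold change was -0.13 ± 0.04 on 5 libraries (edgeR, adjusted p = 0.105), -0.24 ± 0.09 on 6, and -0.03 with the offsets on 5. Lrp8, a related receptor best known in neurons, was at 215, 195 and 202 CPM against 209, 207 and 207 CPM, ranges that overlap (0.07 ± 0.04 on 5 libraries, edgeR adjusted p = 0.425, and 0.04 ± 0.06 on 6). With the offsets on 5 libraries it had 0.13 (edgeR, adjusted p = 0.0578).

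No difference was detected in Abca1, Abcg1, Stard4 and Soat1, the genes among the 28 that export, transfer or esterify sterol. Abca1, an exporter induced by the sterol-sensing receptor LXR, was at 81.6, 71.9 and 78.4 CPM with the Rosa26 gRNA and at 80.2, 74.9 and 70.6 CPM with the JunD gRNA, with a log2 fold change of 0.01 ± 0.06 on 5 libraries (edgeR, adjusted p = 0.98) and -0.02 ± 0.08 on 6. Abcg1, its partner in efflux to lipoproteins, had 0.02 ± 0.05 on 5 libraries and 0.05 ± 0.06 on 6. For the transfer protein Stard4 the values were -0.03 ± 0.05 on 5 and -0.16 ± 0.11 on 6, with 100 CPM in the first control library and 72.4 to 75.5 CPM elsewhere. Soat1, which esterifies cholesterol for droplets, had 115 CPM in the first control library and 85.8 to 96.1 CPM elsewhere, with log2 fold changes of 0.06 ± 0.05 on 5 libraries and -0.08 ± 0.11 on 6. With the offsets on 5 libraries Soat1 came near the threshold (0.15, edgeR adjusted p = 0.0562). Abca1, Abcg1 and Stard4 had 0.08, 0.04 and 0.05 there. Of these 4, 0 passed.

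GC content moved with the differences. Among the 28 genes the log2 ratio of Rosa26 gRNA replicate 1 to replicates 2 and 3 had a Spearman correlation of -0.744 with the GC content of the transcript, and the log2 fold change on 5 libraries, which does not use replicate 1, had 0.567. Over all genes tested these were -0.463 and 0.277. They are across genes, which share libraries and are not replicates. The 14 genes under the median GC content of 48.4% had a median log2 fold change of -0.11 on 5 libraries, with 11 negative, and the other 14 a median of 0.01, with 7 negative. With the offsets the medians were -0.03 and -0.01. Of the 9 genes that lay apart as lower, 8 were under that median. The offsets take GC content and transcript length together, so the part of GC content alone in the calls was not tested. Under these offsets Msmo1 kept its call and Cyp51 did not.

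**Figure D5:**
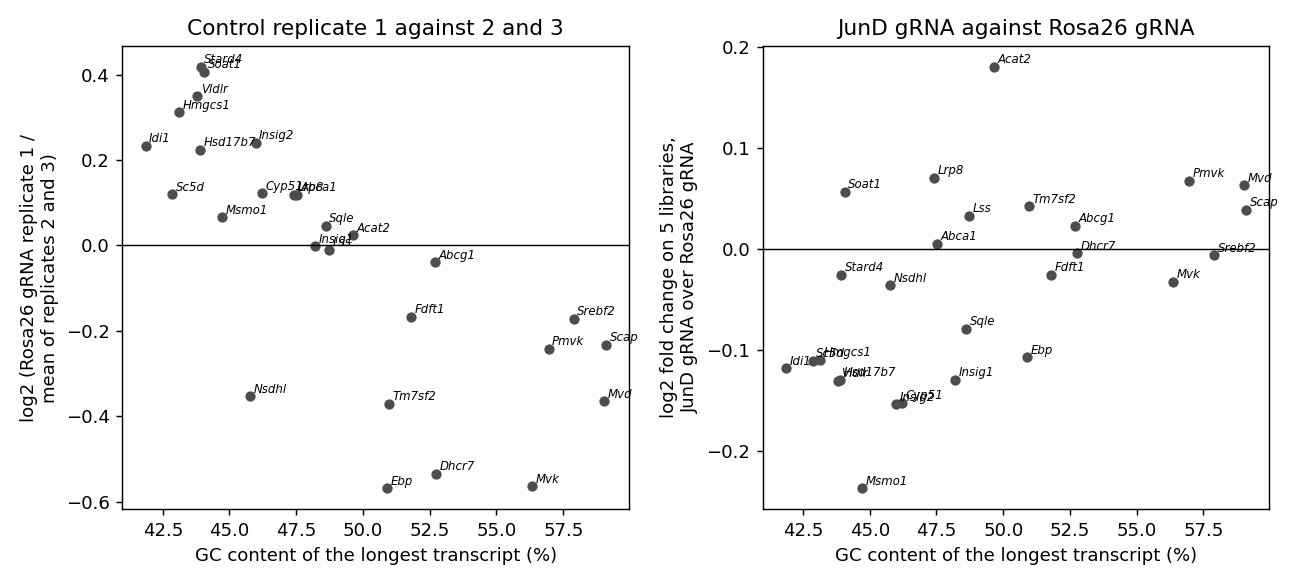
GC content of the longest transcript of 27 of the genes (Fdps is not drawn) against the log2 ratio of Rosa26 gRNA replicate 1 to the mean of replicates 2 and 3 (left) and against the log2 fold change on 5 libraries (right). Points fall from upper left to lower right on the left and rise from left to right on the right; Msmo1, at 44.7% GC, is lowest on the right at -0.24.

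Other genes of the pathway came from 6 lists with 59 genes found in the tables, of which 58 were tested. On 5 libraries 2 rose and 1 fell, against 1.45% and 1.4% of all genes tested, and with all 6 libraries 0 passed (2 had an unadjusted p under 0.05 in edgeR, and DESeq2 and limma-voom called 0). Their median log2 fold change was 0.00 on 5 libraries. Cyb5r3, the cytochrome b5 reductase that feeds electrons to sterol oxidation and fatty acid desaturation, rose: it was at 274, 308 and 294 CPM with the Rosa26 gRNA and at 341, 345 and 351 CPM with the JunD gRNA. The groups did not overlap, and the log2 fold change was 0.21 ± 0.04 on 5 libraries (edgeR, adjusted p = 0.00402) and 0.26 on 6 (0.417). Its direction was the opposite of that of Msmo1, an oxidase that draws on cytochrome b5.

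Acly, which makes cytosolic acetyl-CoA from citrate, rose by a smaller step. It was at 3007, 2945 and 2854 CPM against 3088, 3156 and 3070 CPM, without overlap, with a log2 fold change of 0.10 ± 0.03 on 5 libraries (edgeR, adjusted p = 0.0441) and 0.10 ± 0.05 on 6. Tmem97, a sterol-responsive membrane protein of the endoplasmic reticulum, fell on 5 libraries (-0.18 ± 0.05, adjusted p = 0.037). Its levels were 107, 128 and 128 CPM with the Rosa26 gRNA and 115, 107 and 115 CPM with the JunD gRNA, so that Rosa26 gRNA replicate 1 lay below all 3 JunD gRNA libraries, the other control libraries above them, and the value on 6 libraries was -0.09 (adjusted p = 0.636).

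In the remaining lists 0 genes passed on 5 libraries: 10 of the isoprenoid branch, 11 of SREBP processing and sterol-regulated degradation, and 7 of LXR and its targets. Srebf1, the relative of SREBP2 that drives fatty acid synthesis, had 373, 504 and 507 CPM with the Rosa26 gRNA and 528 to 556 CPM with the JunD gRNA (0.11 ± 0.04 on 5 libraries, edgeR adjusted p = 0.0966, and 0.26 ± 0.12 on 6). The degradation factor Erlin1 averaged 95.8 ± 5.24 CPM against 82.9 ± 0.468 CPM (SD, n = 3 each), without overlap (-0.17 ± 0.05 on 5 libraries, edgeR adjusted p = 0.0587, and -0.19 ± 0.07 on 6). Both are named after their values were seen.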

How the data were processed

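The authors deposited whole-number counts per gene for each of 6 libraries. The submitters' processing notes name TopHat2, featureCounts and mm10. For the annotation, strand setting, versions and treatment of multi-mapped reads, nothing was stated. Symbols matched 53274 of 53379 identifiers without the version number. Lengths, GC content and coordinates came from GENCODE M21 (GRCm38), promoters from RefSeq. The comparison used edgeR 4.0.16 in R 4.3.3 (TMM, filterByExpr, quasi-likelihood test, two-sided, Benjamini-Hochberg over all genes), on 6 libraries and without Rosa26 gRNA replicate 1. SE is the absolute log2 fold change over the square root of F, and is approximate. Offsets for GC content and length were splines with 5 degrees of freedom per library. Alternatives were DESeq2 1.42.0, limma 3.58.1 (voom, with and without sample weights), other filters, scalings and blocks. All 28 genes are named; other genes are named where called, up to 4 per list, and Srebf1 and Erlin1 after their values were seen. The members, lists and the 5-library fit were chosen with earlier results of these data known. All pairs of libraries differed by more than counting noise (lowest chi-square over degrees of freedom 3.27). The fit was tested on simulated data that held no outlying library and no trend with GC content. That test therefore does not cover these features of the libraries. Genes of the pathway outside these lists were not analysed here.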

Additional observations from a re-analysis of the deposited data

How the results depend on the processing

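With all 6 libraries, where edgeR called 0 genes, other settings called 86 (no count filter), 67 (DESeq2), 26 (GC content and length offsets), 14 (replicate block with those offsets) and 293 (limma-voom with sample weights). The replicate block alone called 0. Leaving out each library gave 0 to 523 genes, 0 to 2 of the 28 and 0 to 3 of the other pathway genes, with 523, 2 and 3 without Rosa26 gRNA replicate 1. Sample weights called 1 of the 28, Msmo1 (adjusted p = 0.00595), and 1 other pathway gene. On 5 libraries 523 genes were called (266 higher, 257 lower). The count was 870 with no filter, 832 with the replicate block, 148 at a threshold of 0.01, and 46 to 672 with a further library left out (51 without Rosa26 gRNA replicate 2 and 46 without replicate 3). With the offsets it was 586 (380 higher, 206 lower), and with block and offsets 580 (410 and 170). Of the 28, the offsets, the replicate block with offsets and the threshold of 0.01 each left 1 call (Msmo1), and leaving out a further library 0 to 4. Insig1 passed as well with no filter (adjusted p = 0.0421), in DESeq2 and without JunD gRNA replicate 3 (0.00262), and Insig2 without that library (0.045). The other pathway genes had 3 calls, and 5 with no filter, in DESeq2 or with the offsets, 1 at 0.01, and 0 to 4 with a further library left out. The labels do not say whether same-numbered libraries were prepared together. Their deviations from the group means correlated at 0.054, -0.036 and 0.072. JunD gRNA replicates 1 and 3 correlated best with their own number, and JunD gRNA replicate 2 with Rosa26 gRNA replicate 1 (0.043). The control mean includes Rosa26 gRNA replicate 1, which stood apart, so these values cannot decide whether a batch was shared.

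Signs of the log2 fold change turned for genes that edgeR called on neither 6 nor 5 libraries. On 6 libraries the offsets gave -0.013 for Pmvk, 0.025 for Sc5d, -0.041 for Srebf2, -0.012 for Scap, 0.114 for Abca1 and 0.13 for Soat1. The replicate block with offsets gave -0.013, 0.028, -0.041, -0.012, 0.115 and 0.129 for the same genes. Sample weights gave -0.034 for Mvk, -0.0085 for Fdft1, -0.016 for Nsdhl, -0.097 for Ebp, -0.0077 for Srebf2, 0.018 for Abca1 and 0.053 for Soat1. On 5 libraries the replicate block gave 0.026 for Mvk, 0.0051 for Srebf2 and -0.043 for Abca1. The offsets gave -0.0051 for Mvd, 0.011 for Nsdhl, -0.023 for Scap and 0.053 for Stard4, and the block with offsets 0.0046 for Fdft1, 0.015 for Nsdhl, -0.020 for Scap and 0.066 for Stard4. With each library left out of 6, the ranges that crossed 0 were -0.032 to 0.248 (Mvk), -0.025 to 0.076 (Fdft1), -0.036 to 0.181 (Nsdhl), -0.107 to 0.186 (Ebp), -0.0041 to 0.283 (Dhcr7), -0.0059 to 0.11 (Srebf2), -0.069 to 0.018 (Abca1) and -0.152 to 0.057 (Soat1). Out of 5 they were -0.053 to 0.075 (Abca1), -0.060 to 0.206 (Mvd), -0.45 to 0.365 (Fdps), -0.0065 to 0.101 (Tm7sf2), -0.090 to 0.028 (Nsdhl), -0.045 to 0.046 (Dhcr7), -0.034 to 0.025 (Srebf2), -0.096 to 0.032 (Mvk) and -0.068 to 0.0047 (Fdft1). The cause was not tested. Msmo1, Cyp51, Insig1 and Insig2 were negative under every setting run. Counts were fewest for Fdps, at 20 to 63 a library; an effect of depth was not tested.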
